A study of Mus musculus with 18 samples.

Results

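The comparison set the ileum of 3 C57BL/6 mice at postnatal day 11 against that of 3 mice at postnatal day 9, both ages within the suckling period. The members were chosen by age alone: 6 of the 18 arrays of a series that also sampled days 4, 7, 24 and 32, with 3 arrays at each of the 6 ages. Each array held total RNA from a piece of ileum of 1 mouse, with every wall layer kept, so epithelium, connective tissue, muscle, nerve, vessels and blood cells were measured together. The labels name no treatment and no altered gene at any age, and give neither sex nor litter. Of 18193 genes with a named probe set, 8630 reached a log2 level of 6 on at least 3 of the 18 arrays and were tested. Levels are log2 intensities, so a difference of 1 is a 2-fold difference in signal. A level near the array medians, 3.88 to 3.97, could not be told apart from background, and levels of different probe sets were not set against each other.

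In mice the second week after birth is the later part of exclusive suckling. The ileal epithelium of this period takes milk macromolecules into large endocytic vacuoles and digests them in lysosomes, while the sugar-digesting brush border, bile acid uptake and secretory IgA of the adult are still to come. Paneth cells, the antimicrobial cells of the crypt base, appear and mature over the first weeks. The wall also carries mesentery and fat, and a full-thickness piece holds them in amounts that can vary between mice. In such bulk tissue, fewer cells of a type and less RNA per cell cannot be told apart.

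Markers of intestinal epithelium were high at both ages, while those of ileum were mixed. The epithelial adhesion gene Epcam lay between 12.05 and 12.28 and the intestinal cadherin Cdh17 between 10.87 and 11.16 on the 6 arrays. Of the genes that mark ileum, Fgf15, the bile-acid-induced hormone, was present at 7.41 to 8.63. Fabp6, the ileal bile acid binding protein, was low at 5.34 to 7.15, and the bile acid transporter Slc10a2 was at background, 2.00 to 2.28. Both were high later, with means of 13.09 and 13.04 for Fabp6 and 6.79 and 8.19 for Slc10a2 at days 24 and 32.

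One array stood apart. Across all probe sets, controls included, day 11 replicate 1 correlated with the other day 11 arrays at r = 0.983 and 0.990. The value was 0.992 between those and 0.993 to 0.996 within day 9. Day 11 replicate 1 also had the highest hybridization spike signal of the 6 arrays (9.94, others 9.11 to 9.45), the highest 18S ribosomal signal (8.19, others 5.22 to 6.22) and the largest 3′ over 5′ difference of Gapdh (0.79, others 0.04 to 0.45). Over the genes tested, its median shift from the day 9 mean was −0.14, against −0.03 for each of the other day 11 arrays. Day 11 replicate 2 was the single array of the 6 with a male pattern, with Xist, the RNA of the inactive X, at 5.12 and the Y-linked Eif2s3y at 7.44, against 9.64 to 10.13 and 2.20 to 2.63 on the others. Values without an array are given for the results that turn on it.

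**Figure D1:**
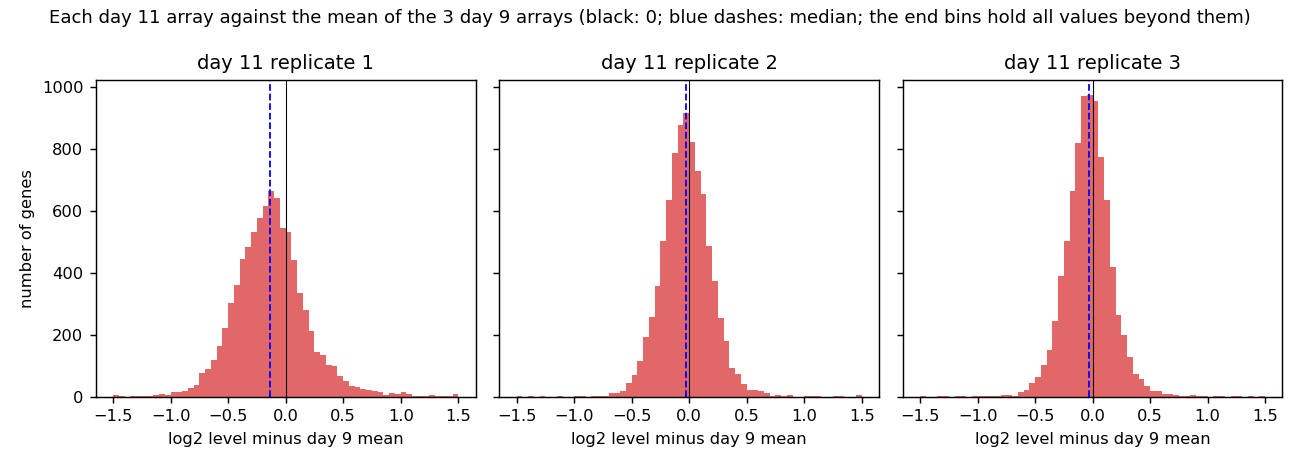
Histograms of the log2 level of each day 11 array minus the mean of the 3 day 9 arrays, over the 8630 genes tested, 1 panel per array. Replicate 1 is broader and lies lower, with its median at −0.14, while replicates 2 and 3 both have theirs at −0.03.

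Few genes passed the test between day 9 and day 11. In limma's moderated test, 4 of 8630 genes passed an adjusted p of 0.05, 0.0463% of those tested, with 3 higher at day 11 (0.0348%) and 1 lower (0.0116%). The 3 higher genes were Car3, Itln1 and Setd5, and the lower one was Pm20d1. Without adjustment 608 genes (7.05%) had p below 0.05, 128 higher (1.48%) and 480 lower (5.56%). Of all genes tested, 6 were at least 2-fold higher (Car3, Adipoq, Scd1, Rab5c and the Y-linked Eif2s3y and Kdm5d) and 6 at least 2-fold lower (Reg3g, Reg3b, Mt2, Mt1, Afp and Xist) in their means, whether called or not. Itln1 and Fos lay just under, at 1.00 when rounded. On day 9 Adipoq was at background, and Scd1 was near it on replicates 1 and 3. The p-values measure the spread between individual mice. Groups of 3 mice did not overlap for 282 genes with day 11 above (3.27%) and 1224 with day 11 below (14.2%).

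That excess of lower values moved with the scaling of the arrays and with replicate 1. The median difference over all tested genes was −0.07 on the deposited values, and 21.1% of the genes with unadjusted p below 0.05 were higher. After quantile normalization the higher share was 39.2% with a median of −0.03, after median centring 8.99% with −0.11, and after cyclic loess 51.6% with −0.01. Without day 11 replicate 1 it was 27.5% with −0.03. List medians below are set beside the median of all genes.

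**Figure D2:**
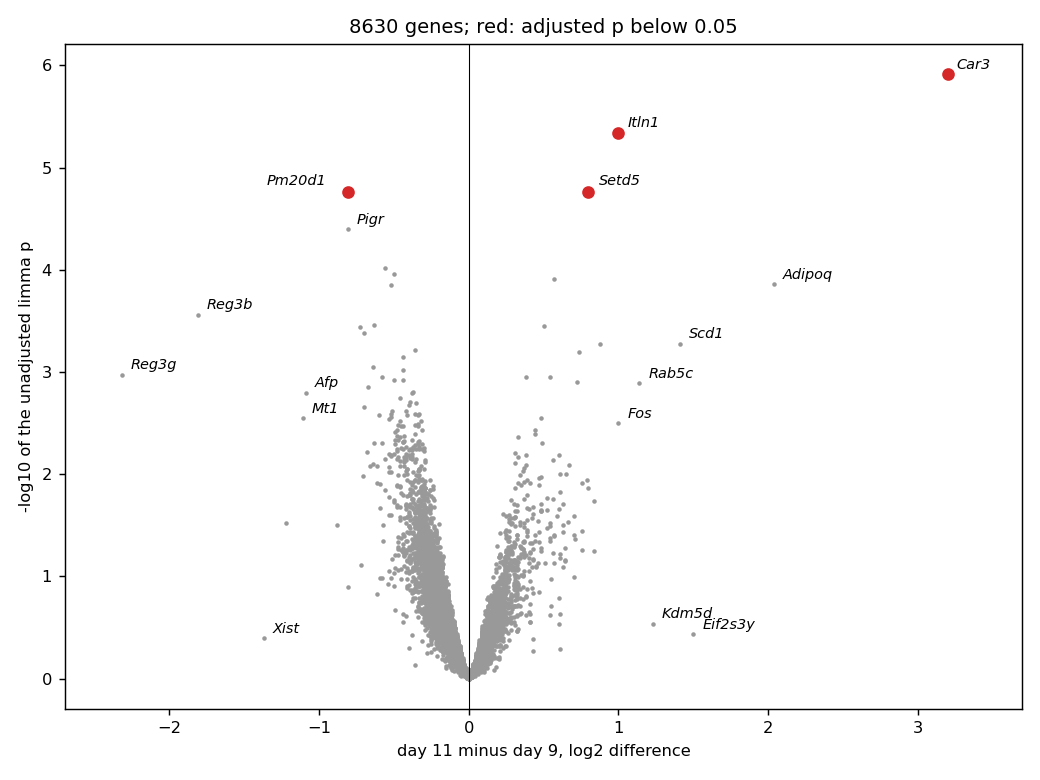
Day 11 minus day 9 on the log2 scale (x axis) against −log10 of the unadjusted limma p (y axis), 1 point per gene tested. The 4 called genes are Car3, at a difference of 3.20, Itln1, Setd5 and Pm20d1, and most other points lie within 1 log2 unit of 0.

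Car3 was the gene with the most marked step. Its product, carbonic anhydrase 3, is an abundant protein of adipocytes, muscle and liver. On the 3 day 9 arrays Car3 (chromosome 3) was at 4.87, 6.82 and 4.44, and on the 3 day 11 arrays at 8.25, 8.21 and 9.26. Every day 11 value lay above every day 9 value, and the day 9 mice were themselves spread, with replicate 2 well above the other two. Car3 rose by 3.20 ± 0.44 (SE; 95% interval 2.26 to 4.13), a 9.17-fold difference with adjusted p = 0.0105 and 3 of 3 day 11 arrays above. All 4 of its probe sets differed in the same direction, by 0.30 to 3.20. Over the series its means were 3.51 at day 4 and 4.09 at day 7, both near background, and 10.37 and 11.03 at days 24 and 32.

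Itln1 encodes intelectin 1, a lectin that binds microbial sugars and is made by Paneth and goblet cells. It was at 7.34, 7.53 and 7.46 on day 9 and at 8.42, 8.16 and 8.74 on day 11, with tight groups that did not overlap. Itln1 rose by 1.00 ± 0.15 (0.68 to 1.32), 2.00-fold, with adjusted p = 0.0196. It has 1 probe set on the array, on chromosome 1. Related intelectin copies exist in some mouse strains, and which copy the probe set reads was not tested.

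Setd5, a chromatin-associated SET-domain protein gene on chromosome 6, was at 6.34, 6.13 and 6.53 on day 9 and at 7.26, 6.95 and 7.19 on day 11. It rose by 0.80 ± 0.14 (0.51 to 1.08), 1.74-fold, with adjusted p = 0.0377. The day 11 arrays were all above the day 9 arrays, yet its 3 probe sets differed by −0.12 to 0.80 and only 1 of them passed the filter. Its means at the other ages, 6.34, 6.62, 6.19 and 6.16 at days 4, 7, 24 and 32, all lay below that of day 11.

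Pm20d1 encodes a secreted enzyme that joins and splits N-acyl amino acids. It was at 7.46, 7.23 and 7.61 on day 9 and at 6.47, 6.77 and 6.63 on day 11. Pm20d1 fell by 0.81 on the log2 scale (SE 0.14; interval −1.10 to −0.52), 1.75-fold lower, with adjusted p = 0.0377. Means at days 4, 7, 24 and 32 were 7.15, 7.40, 7.43 and 7.47, so day 11 was the low point of the series for this gene on chromosome 1. The probe set read for Pm20d1 is of a kind that can also match similar transcripts. The second Pm20d1 probe set differed by −0.36 with overlapping arrays. With the gene's probe sets averaged, the difference was −0.58 and did not pass (adjusted p = 0.383).

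**Figure D3:**
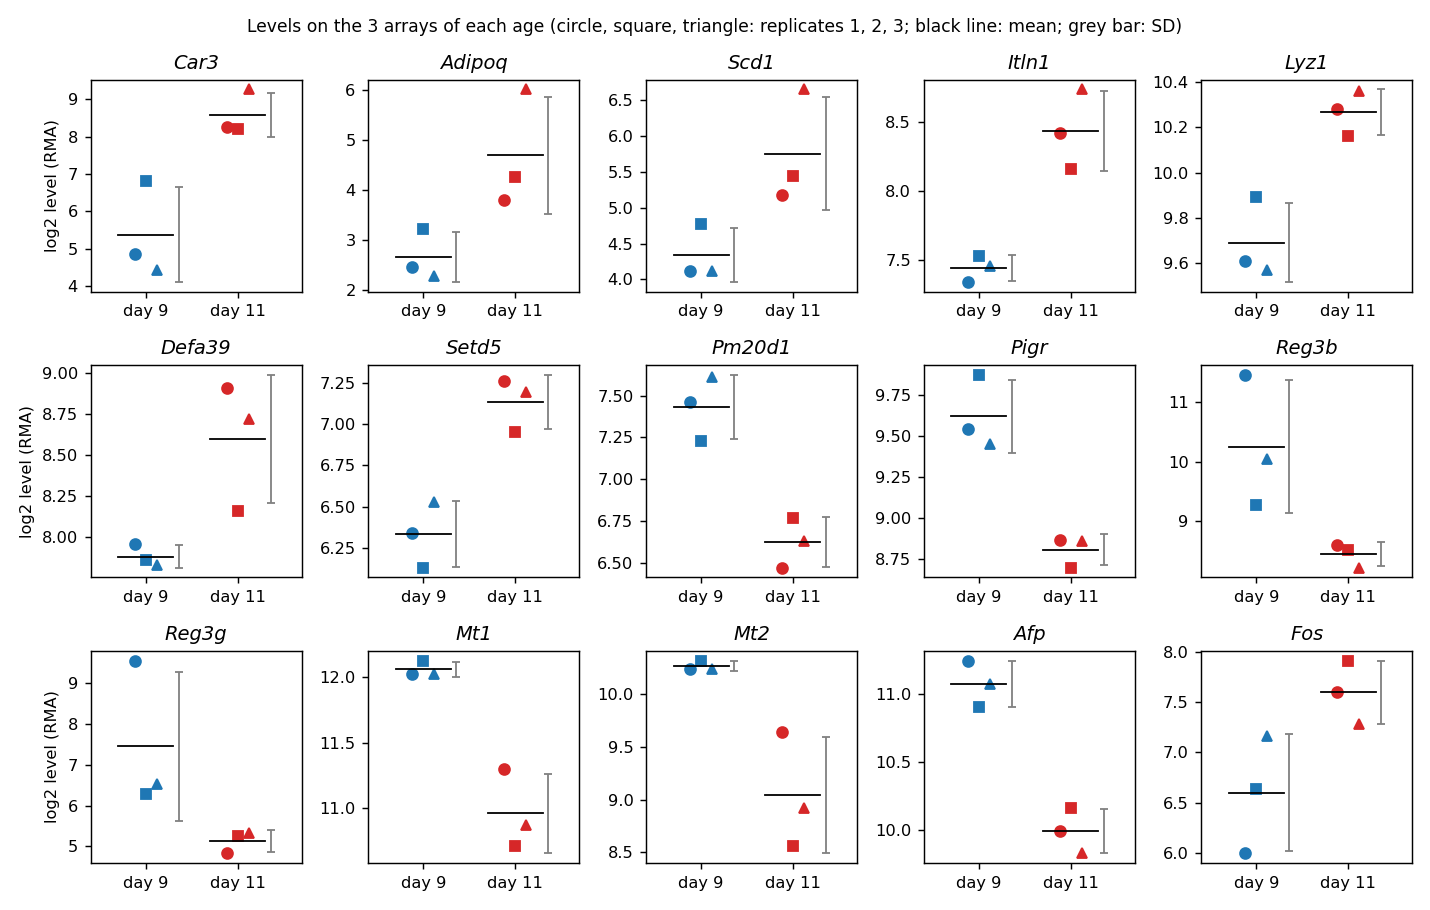
Log2 level of 15 genes on each of the 3 day 9 and 3 day 11 arrays; circle, square and triangle are replicates 1, 2 and 3, the black line is the mean and the grey bar the SD. Car3 goes from a mean of 5.38 to 8.57, Itln1 and Setd5 are higher at day 11 on all 3 arrays, and Pm20d1, Pigr, Reg3b, Mt1 and Afp are lower on all 3.

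These calls depended on which mice were kept. With all 18 arrays sharing one estimate of the spread, no gene was called once day 9 replicate 1, day 9 replicate 3 or day 11 replicate 3 was left out, where Car3 stood at 2.94 (adjusted p = 0.144), 2.73 (0.0703) and 2.85 (0.14). In those runs Itln1 stood at 0.95 (adjusted p = 0.216), 1.01 (0.0844) and 0.85 (0.22). Setd5 stood at 0.80, 0.89 and 0.77, with adjusted p of 0.216, 0.0703 and 0.221. Pm20d1 stood at −0.80, −0.72 and −0.81, with adjusted p of 0.216, 0.376 and 0.221. Without day 11 replicate 1 Car3 alone was called (3.36, adjusted p = 0.0388), and Itln1 (1.01, 0.0716), Setd5 (0.74, 0.169) and Pm20d1 (−0.73, 0.169) were not. Without day 9 replicate 2, Car3 was at 3.92 and Itln1 at 1.04 (0.0416), Pm20d1 at −0.91 (0.0416) and Reg3b at −2.30 (0.0416) were called, and Setd5 at 0.70 (0.244) was not. Without day 11 replicate 2 all 4 were called, with Hmox1, the haem-degrading enzyme, at −0.99 (0.0145). With the hybridization signal group as a block, Car3 (3.18, adjusted p = 0.0188) and Itln1 (1.06, 0.0188) were called, and Setd5 (0.74, 0.101) and Pm20d1 (−0.75, 0.101) were not. With Xist as a covariate Setd5 and Pm20d1 were both at adjusted p = 0.0528. A fit of the 6 arrays alone called no gene, with adjusted p from 0.225 to 0.25 for the 4 and 808 genes at unadjusted p below 0.05, and the 8 arrays of the lower hybridization signal group, a set chosen after seeing the data, called none of the 4 (adjusted p 0.132 to 0.2). All 4 kept their direction in every one of these runs.

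Other genes of fat tissue had higher values at day 11 beside Car3. Of 12 adipocyte genes listed, 8 were measured above the filter; 1 was called, Car3, and 5 had day 11 arrays that all lay above day 9. Of all genes tested 0.0348% were called higher and 3.27% had day 11 arrays that all lay above. Their median difference was 0.60, against −0.07 for all genes tested. Adipoq, the adipocyte hormone adiponectin, was at 2.46, 3.22 and 2.28 on day 9 and at 3.80, 4.27 and 6.02 on day 11. All day 9 values and day 11 replicate 1 were at background, so the fitted 2.04 ± 0.42 (adjusted p = 0.122) does not size a change. Adipoq is still among the 5 genes counted above, and it enters the list median. Scd1, the stearoyl-CoA desaturase, which was listed with fatty acid synthesis and not among these 8, was at 4.12, 4.77 and 4.12 and then at 5.17, 5.44 and 6.65, a difference of 1.41 ± 0.33 (adjusted p = 0.269). Its day 9 replicates 1 and 3 were near background, so the size of that difference is uncertain. The second Scd1 probe set, which did not pass the filter, gave 0.05. Neither pair of groups overlapped, and neither gene passed the test.

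Lpl, the lipase that frees fatty acids from circulating lipoproteins, was at 7.35, 7.94 and 7.09 on day 9 and at 8.11, 8.36 and 8.31 on day 11 (0.80 ± 0.29, adjusted p = 0.584). Fabp4, the fatty acid carrier of fat cells, was at 8.95, 9.01 and 8.91 and then at 9.45, 9.38 and 9.73, a difference of 0.56. Retn, the hormone resistin, was at 5.22, 4.59 and 4.34 and then at 5.49, 5.30 and 5.29, a difference of 0.64. All 3 had groups that did not overlap. The other measured fat genes showed less: Lipe, hormone-sensitive lipase, differed by 0.24, Pck1, an enzyme of glycerol supply, by 0.19 and Cidec, a lipid droplet protein, by −0.01.

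The same mouse was often, but not always, the highest of its age for these fat genes. Day 11 replicate 3 was the highest day 11 array for Car3, Adipoq, Scd1 and Fabp4, replicate 2 for Lpl and replicate 1 for Retn. On day 9, replicate 2 was highest for Car3, Adipoq, Scd1, Lpl and Fabp4, and replicate 1 for Retn. The day 9 ranks of Adipoq, Scd1 and Fabp4 carry little weight. Adipoq was at background, Scd1 was near it on replicates 1 and 3, and Fabp4 ran only from 8.91 to 9.01. The mean level of the 8 genes, Adipoq included, was 6.39, 6.86 and 6.31 on day 9 and 7.28, 7.39 and 7.75 on day 11. How much fat each piece of ileum held was not recorded in the labels, and its part in the Car3 difference was not tested. Of markers of liver and exocrine pancreas, 4 measured hepatocyte genes had a median of −0.15 and 2 acinar genes one of −0.03.

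Paneth cell products were the other list with a called member. Of 14 genes listed, 8 were measured, 1 was called (Itln1), and 4 had day 11 arrays all above day 9 against 1 below, beside 3.27% and 14.2% of all genes. Their median difference was 0.26. Both the 4 and the median include Pla2g2a, which was at background. Lyz1, the Paneth lysozyme, was at 9.61, 9.89 and 9.57 on day 9 and at 10.28, 10.16 and 10.36 on day 11, a difference of 0.57 ± 0.12 with adjusted p = 0.122. Defa39, a cryptdin-family defensin, was at 7.96, 7.86 and 7.83 and then at 8.91, 8.16 and 8.72, a difference of 0.72 ± 0.19 (adjusted p = 0.368). Neither passed the test, although every day 11 array lay above every day 9 array for both. The Lyz1 and Defa39 probe sets are of the kind that can match near-identical copies, so which lysozyme or defensin they read is uncertain. For Lyz1, its 3 probe sets differed by 0.30 to 0.58.

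Other Paneth genes differed less or not upward. Pla2g2a, a secreted antibacterial phospholipase, was at background at both ages, at 3.09, 2.89 and 2.65 on day 9 and 3.54, 3.19 and 3.34 on day 11. The angiogenin Ang4 differed by 0.04, the defensin-processing protease Mmp7 by 0.02, Spink4 by −0.12 and Nupr1 by −0.30. The median of the list ranged from 0.04 to 0.46 over the alternatives tried. The mean level of the 8 genes was 7.75, 7.59 and 7.67 on day 9 and 8.0, 7.77 and 8.13 on day 11, with no overlap but little gap.

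Reg3g and Reg3b had the largest downward differences of all genes tested, and with Pigr they belong to a list of epithelial defence genes that respond to microbes. Reg3b and Reg3g are C-type lectins that bind and kill bacteria, and are induced in the epithelium through STAT3. Pigr is the receptor that carries IgA across the epithelium. Of 13 such genes listed, 6 were measured, none was called (37 of the 39 lists had no called member), 3 had all day 11 arrays below day 9 (14.2% of all genes did), and the median difference was −0.59. That median includes members near background.

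The stretches of 250 bases before the start of Reg3b and Reg3g are shown because these neighbouring genes differed together. Both come from RefSeq's mouse assembly GRCm38.p6, Reg3b at chr6:78370635-78370884 on the plus strand and Reg3g at chr6:78468875-78469124 on the minus strand, and are written 5′ to 3′ on the gene's strand. Capitals mark matches to TTCNNNGAA, the palindromic core bound by STAT factors.
Reg3b: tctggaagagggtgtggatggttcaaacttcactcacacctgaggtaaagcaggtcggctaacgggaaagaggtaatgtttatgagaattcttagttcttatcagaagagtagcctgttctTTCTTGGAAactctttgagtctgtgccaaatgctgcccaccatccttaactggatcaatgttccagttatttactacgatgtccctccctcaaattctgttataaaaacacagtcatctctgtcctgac
Reg3g: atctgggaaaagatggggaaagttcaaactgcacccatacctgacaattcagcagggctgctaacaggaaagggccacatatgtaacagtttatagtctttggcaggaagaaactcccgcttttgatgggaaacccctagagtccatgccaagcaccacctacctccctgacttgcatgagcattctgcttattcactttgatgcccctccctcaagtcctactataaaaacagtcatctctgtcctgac
Reg3b held 1 match, TTCTTGGAA, at 129 to 121 bases before the start, and Reg3g held none in this window. Of 32851 promoters of this length 7.02% held at least 1. Aligned to each other, the stretches shared 173 of 247 bases (70.0%).

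Reg3g was at 9.56, 6.28 and 6.52 on day 9 and at 4.83, 5.26 and 5.32 on day 11. Replicate 1 of day 9 was far above the other day 9 mice, and all day 11 mice lay below every day 9 mouse. The difference was −2.32 ± 0.59 (interval −3.56 to −1.07, adjusted p = 0.368), and it ran from −2.90 to −1.27 as each array was left out. Reg3b was at 11.46, 9.27 and 10.04 on day 9 and at 8.61, 8.52 and 8.22 on day 11. Its difference was −1.81 ± 0.40 (interval −2.64 to −0.97, adjusted p = 0.215), and its other probe set gave −2.01. Again replicate 1 was the highest day 9 mouse, and no day 11 mouse reached the lowest of day 9.

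Pigr was at 9.54, 9.87 and 9.45 on day 9 and at 8.87, 8.70 and 8.86 on day 11. Its day 11 arrays lay within a narrow band below all day 9 arrays, and the difference of −0.81 ± 0.15 (interval −1.12 to −0.49) narrowly missed the test at adjusted p = 0.0693. Its second probe set gave −0.84. Pigr passed with the filter at log2 8 (adjusted p = 0.0466), after median centring (0.0476), with a trended, robust variance (0.0324) and with array weights. It did not pass in the other settings, with adjusted p = 0.0785 after quantile normalization, 0.129 after cyclic loess, 0.14 with the hybridization block, 0.154 with Xist and 0.119 to 0.365 as each of the 6 arrays was left out. Its other measured list-mates differed less, Reg3a by 0.07, and the acute-phase genes Saa1 and Saa2 by −0.36 and −0.15. Averaged together, these list-mates lay near background, below the array medians, on every day 9 and day 11 array. Their differences do not size a change, yet they enter the list's median and mean levels. The list's mean level was 6.95, 5.90 and 5.94 on day 9 and 5.41, 5.36 and 5.33 on day 11, lower on every day 11 array.

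Among the suckling ages, the mean of each of these genes was highest at day 9. Pigr averaged 9.24 at day 4, 8.46 ± 0.21 (SD, n = 3) at day 7, 9.62 ± 0.22 at day 9 and 8.81 ± 0.09 at day 11, then 11.92 and 12.45 at days 24 and 32. Tested as the step to day 11 less the step from day 7 to day 9, Pigr was the 1 gene called of 8630 (0.0116%), at −1.96 ± 0.26 with adjusted p = 0.00481. Both steps share the day 9 arrays. Of the day 9 and day 11 arrays, left out in turn, the call for Pigr held without each (−2.13 to −1.91, adjusted p 0.012 to 0.0357) except day 9 replicate 2, where Pigr was at −1.71 (adjusted p = 0.0521) and Reg3b was called instead (−4.72, 0.0173). With only the 12 arrays up to day 11 no gene was called (Pigr adjusted p = 0.0821), and 350 had unadjusted p below 0.05. Over all arrays the same quantity was −3.73 for Reg3b (adjusted p = 0.184) and −5.04 for Reg3g (0.334).

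**Figure D4:**
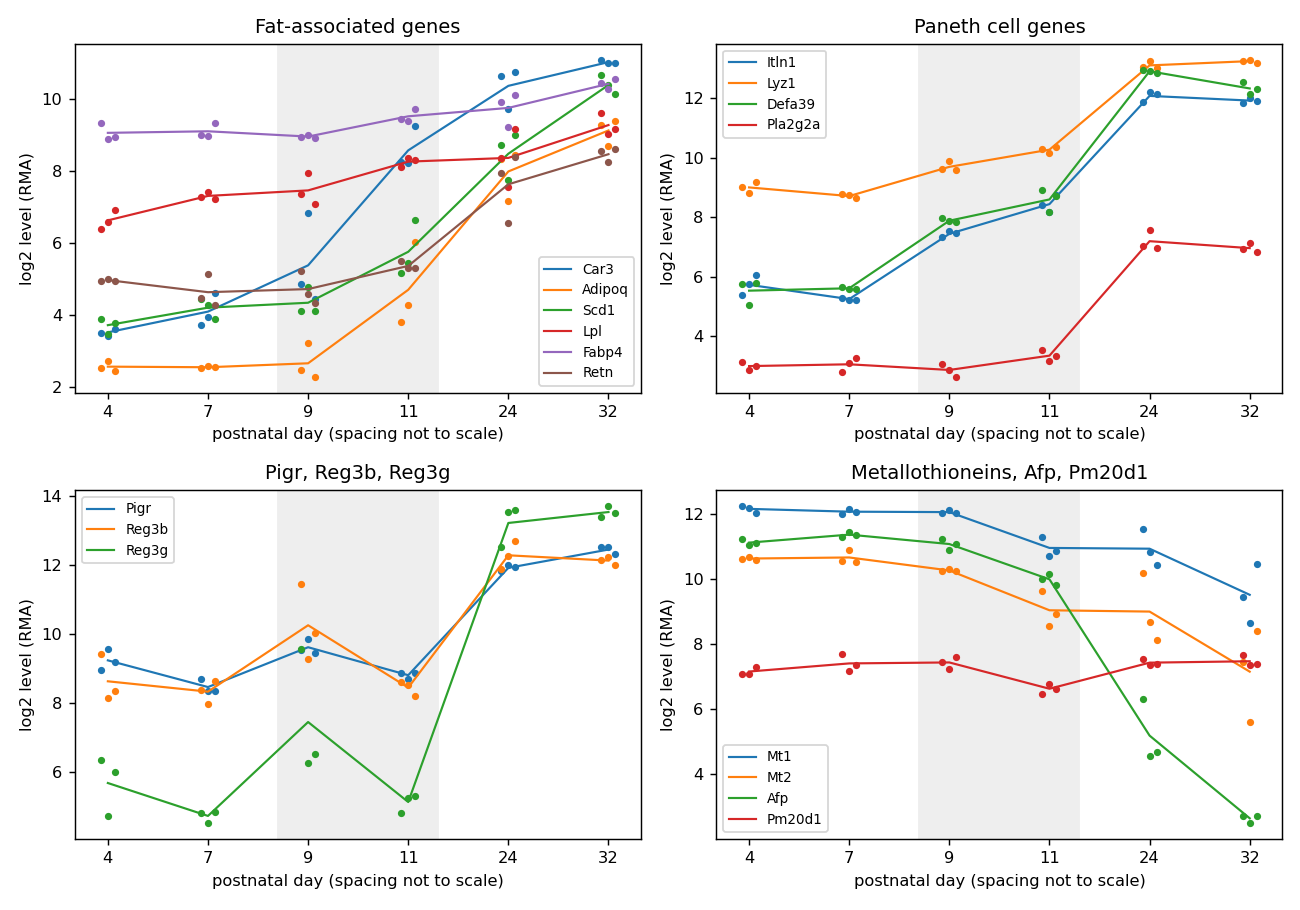
Log2 level by postnatal day (points are arrays, lines are means; days not to scale; days 9 and 11 shaded) for fat-associated genes, Paneth genes, Pigr with Reg3b and Reg3g, and Mt1, Mt2, Afp and Pm20d1. Car3 and Itln1 are higher still at days 24 and 32, while Pigr, Reg3b and Reg3g have their highest suckling-age mean at day 9 and are highest after weaning.

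Both metallothionein genes had lower values on every day 11 array, without passing the test. Mt1 and Mt2 encode small cysteine-rich proteins that bind zinc and copper, and are induced by metals and glucocorticoids. The 250 bases before each start are shown because the neighbouring genes differed together. Both are on the GRCm38.p6 plus strand, Mt1 at chr8:94178839-94179088 and Mt2 at chr8:94172368-94172617. Capitals mark matches on either strand to TGCACNC or TGCGCNC, the core of the metal response element, bound by the zinc-sensing factor Mtf1.
Mt1: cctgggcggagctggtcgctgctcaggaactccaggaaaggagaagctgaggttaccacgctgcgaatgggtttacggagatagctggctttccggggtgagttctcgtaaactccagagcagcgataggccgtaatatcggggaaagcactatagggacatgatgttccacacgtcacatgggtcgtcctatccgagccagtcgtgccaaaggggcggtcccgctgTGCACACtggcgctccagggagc
Mt2: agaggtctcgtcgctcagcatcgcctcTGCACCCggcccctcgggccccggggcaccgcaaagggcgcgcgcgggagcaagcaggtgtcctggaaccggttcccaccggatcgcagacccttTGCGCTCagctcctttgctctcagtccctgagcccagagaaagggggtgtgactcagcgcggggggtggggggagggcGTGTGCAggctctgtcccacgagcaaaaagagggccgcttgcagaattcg
Mt1 held 1 match in this window, at 23 to 17 bases before the start, and Mt2 held 3, at 223 to 217, 128 to 122 and 50 to 44. These counts depend on where the annotated start lies, and bases beyond the window were not searched. They therefore do not show that the genes differ in how many such elements they have. Of 32851 promoters 21.4% held at least 1 and 1.26% at least 3. The stretches shared 124 of 232 aligned bases (53.4%).

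Mt1 was at 12.03, 12.13 and 12.03 on day 9 and at 11.30, 10.71 and 10.87 on day 11. Mt2 was at 10.24, 10.32 and 10.24 on day 9 and at 9.64, 8.56 and 8.92 on day 11. The day 9 mice were nearly equal and the day 11 mice were all lower, in the same order for both genes, with replicate 1 least low. Neither passed the test, with differences of −1.11 ± 0.32 for Mt1 (adjusted p = 0.49) and −1.22 ± 0.52 for Mt2 (0.644). Means at days 4, 7, 24 and 32 were 12.16, 12.08, 10.94 and 9.52 for Mt1, and 10.63, 10.67, 9.00 and 7.15 for Mt2. Using the 12 arrays up to day 11, Mt1 passed (adjusted p = 0.00696) and Mt2 was at 0.0509. With only the arrays of the lower hybridization signal, which leaves out day 11 replicate 1, they were at −1.28 (0.00275) and −1.52 (0.00493).

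Afp, the fetal albumin-like protein made by fetal liver and gut, was at 11.25, 10.91 and 11.08 on day 9 and at 9.99, 10.16 and 9.83 on day 11. The groups did not overlap, and the means showed a difference of −1.09 ± 0.29 (adjusted p = 0.405). It passed on the 12 suckling arrays (adjusted p = 0.0029). Its level was 11.12 and 11.37 at days 4 and 7 and 5.18 and 2.63 at days 24 and 32. All 3 of its probe sets that passed the filter were lower at day 11.

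Immediate early genes, transcribed within minutes of a stimulus, were mixed. Egr1, a zinc-finger factor, was at 6.53, 6.65 and 6.74 on day 9 and at 7.43, 7.38 and 7.35 on day 11, 2 tight groups with a difference of 0.74 ± 0.18 (adjusted p = 0.291). Fos, a subunit of AP-1, was at 6.00, 6.64 and 7.16 and then at 7.60, 7.91 and 7.28, a difference of 1.00 ± 0.29 (adjusted p = 0.49). Egr1 passed on the 12 suckling arrays (adjusted p = 0.0174). Other members differed by less: Dusp1 by 0.41, Jun by 0.36, Klf2 by 0.24, Junb by 0.23, Atf3 by −0.27. Ier2 went the other way, from 8.26, 8.32 and 8.33 to 7.80, 8.15 and 7.70. Of 12 measured members 9 were above 0, and the median was 0.17.

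Further genes with a large difference that did not pass are given as values. Pnliprp2, a lipase gene, was at 5.07, 5.38 and 5.41 on day 9 and at 6.09, 5.88 and 6.53 on day 11 (0.88 ± 0.21, adjusted p = 0.269), and its other probe set gave 1.07. Its means were higher still at days 24 and 32, at 9.57 and 9.13. Fgf15, the ileal hormone that restrains bile acid synthesis in liver, was at 7.41, 7.84 and 8.0 and then at 8.51, 8.63 and 8.62, a difference of 0.84 ± 0.41 (0.678). Apob, the structural protein of chylomicrons, was at 10.53, 11.10 and 10.77 and then at 11.44, 11.48 and 11.32, a difference of 0.61 ± 0.23 (0.589). All 3 had day 11 arrays above every day 9 array.

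Some large differences rested on 1 mouse. Rab5c, an early endosome GTPase, was at 7.07, 7.28 and 7.34 on day 9 and at 7.78, 7.84 and 9.51 on day 11, and its difference went from 1.14 to 0.58 without replicate 3. Sesn3, a stress-responsive sestrin, was at 7.30, 7.59 and 7.46 and then at 9.24, 7.67 and 7.96, and its 0.84 became 0.37 without replicate 1, with −0.05 on its other probe set. Rnf149, a ubiquitin ligase, was at 8.26, 8.33 and 8.11 and then at 6.69, 7.82 and 8.03, and its −0.72 became −0.31 without replicate 1. Hmox1 was at 6.70, 6.56 and 6.85 and then at 5.70, 6.77 and 5.72, so replicate 2 alone resembled day 9. Kdm5d, Y-linked, was 5.75 on the male-pattern replicate 2 and 2.09 to 2.14 elsewhere, so its 1.23 is that 1 mouse.

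The lower end of the range held further genes that did not pass. The serine protease Prss32 differed by −0.70, the small GTPase Diras2 by −0.70 ± 0.16 (adjusted p = 0.24), the clotting-related Proz by −0.68 and the uncharacterized 2810410L24Rik by −0.73 ± 0.17 (0.223). In all of these, all day 11 arrays lay below day 9.

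The genes that define the suckling enterocyte had small differences. Of 20 listed 19 were measured and none was called, beside 0.0463% of all genes. Of the 19, 5 had all day 11 arrays below day 9 and 0 had all above, beside 14.2% and 3.27% of all genes. The median was −0.06, next to the −0.07 of all genes, and members ran from −0.25 to 0.41. The highest was the oxidase gene Nox4 (0.41 ± 0.30, adjusted p = 0.769), whose day 9 and day 11 arrays overlapped. Lactase (Lct) was at 11.08, 11.37 and 11.20 on day 9 and 11.34, 11.06 and 11.29 on day 11, a difference of 0.01 with a 95% interval of −0.72 to 0.74. The endocytic receptor partners Mamdc4 and Cubn differed by −0.24 (−0.67 to 0.19) and 0.09, and the neonatal IgG receptor Fcgrt by 0.17. Prdm1, the repressor of the adult enterocyte programme, differed by 0.28 ± 0.12 (0.03 to 0.53, adjusted p = 0.644). Mamdc4 was at −0.15 and Prdm1 at 0.17 without day 11 replicate 1.

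Lists of adult function were also near the all-gene median. The adult brush border list, 14 of 16 measured, had a median of 0.04. Trehalase (Treh) and arginase 2 (Arg2) were at background at both ages, with differences of 0.15 and 0.03. Bile acid handling genes, 9 of 10 measured, had a median of −0.06, and within it Fgf15 was at 0.84 and Fabp6 at −0.71 ± 0.25 (adjusted p = 0.554; −0.37 without day 9 replicate 1). Fabp1, a fatty acid carrier of the enterocyte, differed by 0.32, the growth factor Igf2 by −0.16 and the glucocorticoid-induced Fkbp5 by 0.28.

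Values of lysosomal genes lay mostly below 0, as did those of all genes. Of 18 measured 17 lay below 0, against 5805 of the 8630 genes tested, and 10 had no overlap, against 14.2% of all genes. None was called, and the median was −0.12. The glycosidases Gusb, Naglu and Glb1 differed by −0.44 (−0.29 without day 11 replicate 1), −0.33 and −0.25. Under the other scalings the median stayed at −0.16 to −0.07. MHC class I presentation genes did the same, all 11 measured below 0 with a median of −0.17, Psmb8 at −0.41, Psmb9 at −0.37 and Tap1 at −0.32, the immunoproteasome subunits and peptide transporter. Their median was −0.05 without day 11 replicate 1.

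Connective tissue and crypt genes leaned high. All 16 measured matrix and fibroblast genes lay above 0 on the probe set read for each. The median was 0.17, with Eln (elastin) at 0.48 (0.22 without day 9 replicate 3) and Col5a2 at 0.30. Second probe sets that passed the filter gave 0.76 for Eln, but −0.01 for Col5a2 and −0.13 for Col1a1. All 9 measured crypt stem cell and Wnt target genes lay above 0 with a median of 0.14, and Lgr5, a stem cell receptor, was at 0.43 and at 0.16 without day 11 replicate 1. Smooth muscle genes had 10 of 11 above 0, with a median of 0.09 and Tagln at 0.31. No member of these 3 lists was called, and each list's genes come from the same 6 mice.

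Lists below the all-gene median included cholesterol synthesis at −0.13 (13 of 14 below 0, Mvd at −0.35; 0.03 without day 11 replicate 1), iron and haem at −0.13 (−0.01 without it), and enteroendocrine genes at −0.11, with 8 of 9 below 0. The glucocorticoid-induced list, which holds both metallothioneins, had a median of 0.06. ER chaperones such as Pdia4 (0.64) and Hspa5 (0.30) sat within a heat shock and ER stress list with a median of 0.03.

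Medians of the other epithelial and metabolic lists were −0.05 for goblet cells, 0.04 for enterocytes, 0.03 for lipoprotein assembly, 0.01 for fatty acid oxidation, −0.01 for fatty acid synthesis, 0.02 for xenobiotic metabolism, −0.02 for the cell cycle and −0.04 for the circadian clock. Immune lists had medians of 0.10 for innate sensing, 0.07 for B and plasma cells, −0.02 for T cells, −0.03 for MHC class II, −0.02 for interferon-stimulated genes, 0.00 for macrophages and dendritic cells and 0.12 for Kit, the 1 measured mast cell gene. Within the macrophage list the lysosomal glycoprotein gene Cd68 differed by −0.61 (−0.35 without day 11 replicate 1) and the mannose receptor gene Mrc1 by 0.35 (0.13 without day 9 replicate 1). Imprinted genes were at 0.00, endothelium at 0.07, enteric neurons and glia at −0.06, the 1 erythroid gene at 0.25 and the sex-linked genes at −0.06. Kit was at −0.07 and the erythroid gene at 0.04 without day 11 replicate 1.

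**Figure D5:**
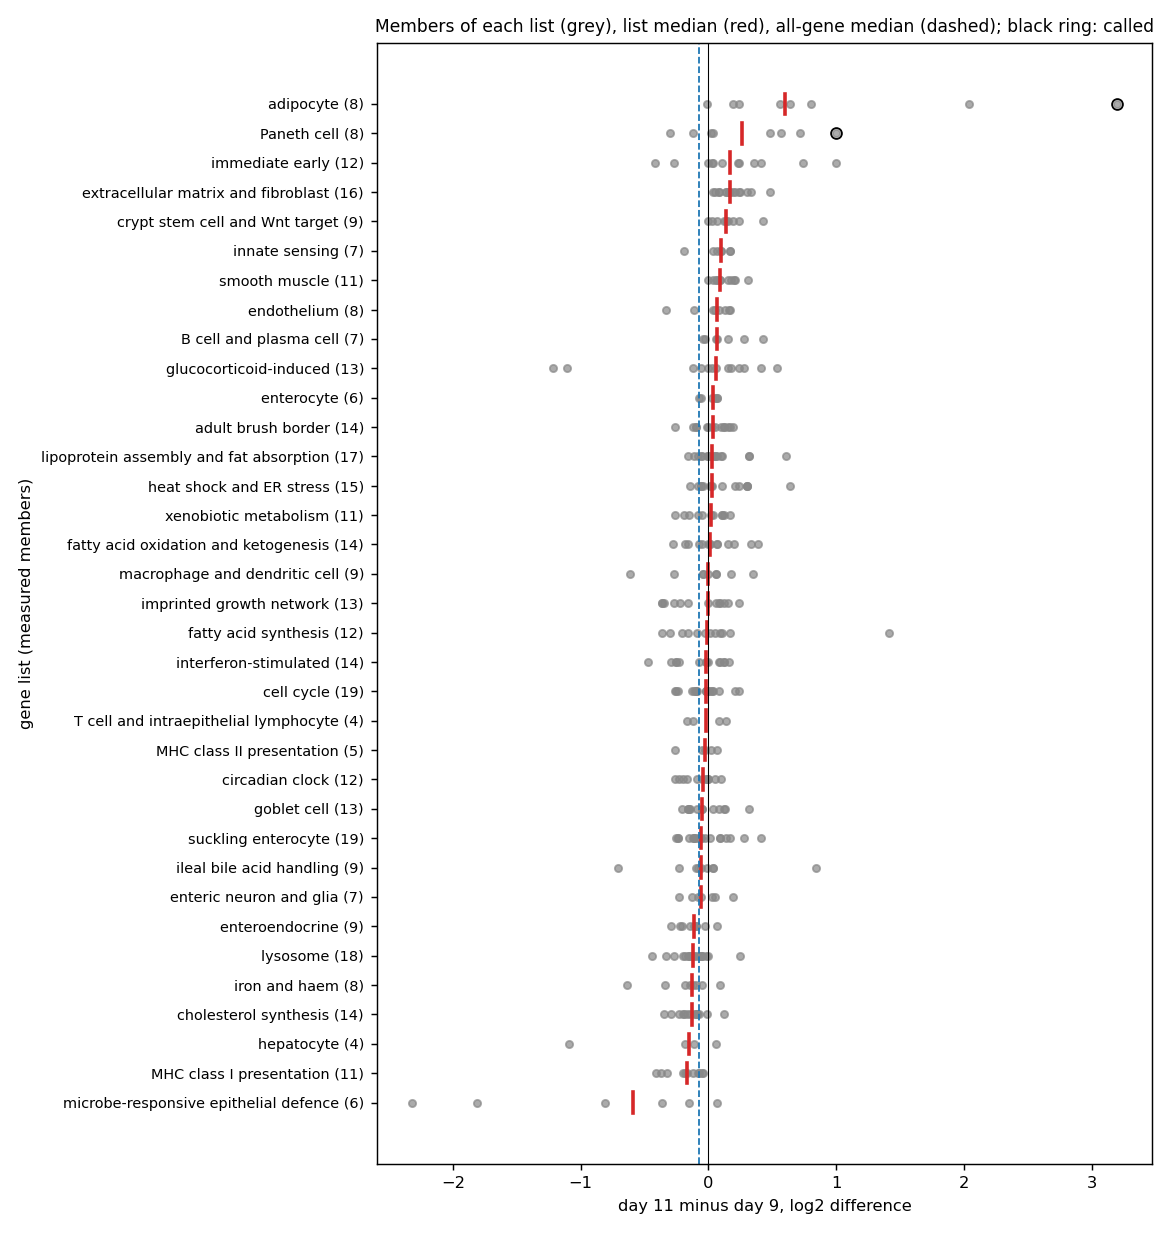
Day 11 minus day 9 (log2) for each measured member of the lists with at least 4 measured genes; red bars are list medians, the dashed line is the median of all genes tested, and black rings are called genes. The adipocyte list (median 0.60) and the defence list (median −0.59) lie farthest from the all-gene median of −0.07. Both lists hold values near background.

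The step was also compared with the earlier step from day 4 to day 7, which shares no array with it and is 1 day longer. The difference between the steps was called for 3 of 8630 genes (0.0348%). Itln1 went from a mean of 5.73 at day 4 to 5.25 at day 7 and rose between days 9 and 11, a difference between steps of 1.48 ± 0.22 (adjusted p = 0.0112). Anxa8, an annexin, went from 6.44 to 7.55 and then from 7.01, 6.92 and 6.99 to 6.39, 6.91 and 6.44 (−1.5 ± 0.22, 0.0112). Rsrp1, a splicing-related protein gene, went from 9.06 to 10.06 and then differed by −0.23 (−1.23 ± 0.21, 0.0381). No gene was called without day 9 replicate 1 (564 at unadjusted p below 0.05; Itln1 and Anxa8 at adjusted p = 0.0605) or without day 11 replicate 3 (471; 0.0617). With the hybridization block Anxa8 and Rsrp1 were both at adjusted p = 0.0609. On the 12 arrays up to day 11 Itln1 was at 0.0741 and Rsrp1 at 0.0996. Rsrp1 also did not pass after quantile normalization (0.0544), cyclic loess (0.0584) or averaging of probe sets (0.225, Anxa8 0.108), or with Xist (0.0774). Without day 11 replicate 1, 8 genes were called, and without day 9 replicate 2, 6.

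Direction across weaning was read from days 24 and 32 against days 4 and 7, none of them in the day 11 minus day 9 difference. There 2486 genes were higher (28.8%) and 3462 lower (40.1%). Car3 differed by 6.90, Itln1 by 6.50, Adipoq by 6.00, Scd1 by 5.48, Defa39 by 7.03 and Lyz1 by 4.31, the same way as between days 9 and 11. For Adipoq, the day 9 values were at background, and Scd1 was near it on day 9 replicates 1 and 3. Afp at −7.34, Mt2 at −2.58 and Mt1 at −1.89 also kept one direction. Reg3g at 8.17, Reg3b at 3.73 and Pigr at 3.33 went the opposite way, and so did Setd5 at −0.31 (adjusted p = 0.00892). Pm20d1 at 0.17 (adjusted p = 0.139) did not pass. Sex pattern and hybridization signal also differed across weaning. All arrays of days 24 and 32 were in the higher hybridization signal group, while days 4 and 7 held both groups. By Xist and Eif2s3y, the later arrays were male except day 24 replicate 2. The earlier ones were female except day 4 replicate 3 and day 7 replicate 3. Over all 8630 genes the step and the change across weaning correlated weakly, at Pearson 0.08 and Spearman 0.04, and without day 11 replicate 1 at 0.16 and 0.15, a description across genes that are not independent replicates.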

How the data were processed

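Total RNA from ileum of individual mice was hybridized to Affymetrix arrays, and the deposited values, one column per array in one table, are log2 intensities; per the submitters' processing notes the authors used RMA. Whether all arrays were summarized together is not given in the sources used here. Of 45101 probe sets, 64 were controls; 34945 had 1 gene symbol, 932 had several and were not named, and 9211 were not listed. Of those with 1 symbol, 34741 matched a RefSeq gene by Entrez number. Each of 18193 genes was read from its probe set of highest mean over the 18 arrays, and 8630 that reached log2 6 on at least 3 arrays were tested. Ages were compared with limma 3.58.1 (R 4.3.3): lmFit with age as a factor over all 18 arrays, eBayes, and Benjamini-Hochberg adjustment over all genes tested, called below 0.05. The functions were tested on simulated data. Precision was limited by 3 arrays per age: the median standard error of a difference was 0.142.

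The members and the 39 gene lists were chosen with earlier results of these data known, and the lists received no test of their own. Genes were named by rule: up to 15 called each way; filled to 12 each way with the largest differences whose arrays did not overlap; up to 3 members of each list with the largest difference; fixed sentinel genes (H19 did not pass the filter); the 5 genes each way with the smallest p for each difference between steps; and a few chosen after their values were seen: the other probe sets, genes called under an alternative, and list members such as Fabp4, Retn, Jun or Saa1 given to complete a list. The rules set which genes could be named, and the text names only some of those chosen by list or by a difference between steps. Replicates are numbered in accession order, which pairs nothing. The alternatives were 2 filters, averaging a gene's probe sets, 3 scalings of the arrays, another variance prior, array weights, 2 smaller sets of ages, hybridization signal as a block, Xist as a covariate and leaving out each array.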

Additional observations from a re-analysis of the deposited data

Results flagged for a closer look

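The step from day 9 to day 11 differed from the step from day 4 to day 7 for 3 genes by limma's test of the difference itself. Itln1 differed by 1.48 ± 0.22 (SE; adjusted p = 0.0112), Anxa8 by −1.5 ± 0.22 (0.0112) and Rsrp1 by −1.23 ± 0.21 (0.0381). Anxa8 and Rsrp1 lost the call with the hybridization block (0.0609 each), and Itln1 (0.0741) and Rsrp1 (0.0996) lost it on the 12 arrays up to day 11, where Anxa8 was at 0.0299. For Pigr, the step to day 11 differed from the step between day 7 and day 9 by −1.96 ± 0.26 (adjusted p = 0.00481). It lost the call without day 9 replicate 2 (0.0521), on the 12 arrays (0.0821) and on the 8 arrays of the lower hybridization signal group (0.134).

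A probe set with no gene name in the annotation used here, 1436857_at, gave a signal outside the comparisons by gene. It was at 6.94, 7.37 and 7.22 on day 9 and at 9.32, 8.81 and 9.17 on day 11, a difference of 1.92 ± 0.17 or 3.79-fold. Tested with limma over 45037 probe sets, it was called with adjusted p = 0.000193, beside 1 other, a Car3 probe set (0.0464). Its means were 4.41 at day 4, 4.09 at day 7, 7.18 ± 0.22 (SD, n = 3) at day 9, 9.10 ± 0.27 at day 11, and 12.75 and 12.67 at days 24 and 32. All 3 day 11 arrays lay above all 3 day 9 arrays.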

How the results depend on the processing

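With 3 mice per age, no call between day 9 and day 11 survived every choice. Over 19 settings tried besides the reported one, Car3 was called in 14 and Itln1 in 13; over 18, Setd5 was called in 7 and Pm20d1 in 6; all 4 kept their direction. The 4 genes called became 2 with no filter, 354 with array weights, 0 with only the ages compared (808 at unadjusted p below 0.05 in limma), 7 with the 12 arrays up to day 11, 2 with the hybridization block, 2 with Xist as a covariate, and 0 to 5 leaving out each array of days 9 and 11. The weights estimate stopped before its convergence tolerance, and gave day 11 replicate 1 a weight of 0.32 and day 9 replicate 2 one of 9.46. Higher calls (3) became 70 with weights, 0 with only the ages compared, 0 with the lower hybridization group, and 0 to 3 leaving out arrays. The lower call (1) became 0 with no filter, with probe sets averaged, with cyclic loess, with only the ages compared, with the block and with Xist, 2 with median centring and with the trended, robust prior, 284 with weights, 3 with 12 arrays and with the lower group, and 0 to 2 leaving out arrays. For the difference between the steps around day 9, the 1 call became 333 with weights, 0 with 12 arrays (350 unadjusted) and 0 with the lower group (523). Against day 7 minus day 4, the 3 calls became 5 with no filter, 1 with probe sets averaged, 243 with weights, 1 with the block, 0 with the lower group (687 unadjusted) and 0 to 8 leaving out arrays. Calls across weaning became 9175 with no filter (4461 higher) and 2754 with the filter at log2 8 (1202 higher, 1552 lower). Values near 0 changed sign: Lct was −0.03 with median centring, −0.09 with weights, −0.01 with the block, −0.05 with the lower group and −0.06 to 0.09 leaving out arrays; Arg2 was −0.01 with quantile normalization and with median centring, and −0.05 to 0.12 leaving out arrays; Sectm1b was −0.07 with probe sets averaged and −0.1 to 0.19 leaving out arrays. Ddit4 was −0.1 to 1.14 leaving out arrays, lowest without day 11 replicate 2. Xist was 0 with its own level as a covariate and −2.22 to 0.29 leaving out arrays, and Eif2s3y −0.2 to 2.42. The causes were not tested. The lower hybridization group was chosen after seeing the data. No paired analysis was possible because the labels give no replicate numbers shared across ages; day 9 replicate 2 and a day 7 array carry the same number in their titles, and whether that marks 1 animal or litter is not given.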
